A study of Sus scrofa with 3 samples.

Results

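Porcine intestinal cells that had been exposed to Lactobacillus jensenii TL2937 were compared with the same cells exposed to Lactobacillus plantarum TL2766, both after a challenge with ETEC PAMPs, the molecular patterns of enterotoxigenic Escherichia coli. The comparison used 2 of the 3 arrays of the series, 1 for each strain, and all 43603 non-control probes, with no choice of probes by their values. The cells were PIE cells, described as a non-transformed line derived from the intestinal epithelium of an unsuckled newborn pig. Marker genes set against that label are given at the end. In each group the cells grew for 3 days on collagen-coated plates and then received medium or lactobacilli for 48 h. The bacteria were washed away and the PAMPs were added for 12 h before total RNA was taken. The group called TL2937+ETEC met L. jensenii TL2937, the group called TL2766+ETEC met L. plantarum TL2766, and the group called ETEC met medium and the same challenge; the ETEC array enters no difference below and is given as a further level. The unchallenged cells that the design names are not analysed here. The model is 1 cell line challenged with bacterial products, and each group is 1 culture on 1 array.

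Epithelial cells sense such bacterial products through Toll-like receptors. NF-kB then drives cytokines, chemokines and cyclooxygenase, and IRF factors drive interferon, which through JAK-STAT signalling switches on antiviral effectors, antigen presentation and several complement genes. Lactobacilli given before a challenge are studied because some strains change the size of this response. The question put here is whether levels after 1 challenge differed with the strain that came before it. Every array used here came from challenged cells, so the differences below are of levels, and the change from before the challenge was not measured.

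Cells pretreated with TL2937 had lower signals than cells pretreated with TL2766 for most of the interferon, chemokine, antigen-presentation and complement genes on the array, and for IL6 and PTGS2. They had higher signals for the genes of mitosis. At the brightest probe of each gene these differences were below 2-fold. Genes of the ribosome, respiratory chain, heat shock and antioxidant defence lay close to each other on both arrays. With 1 array per group there is no replicate, no test and no p-value, and array position on the single slide, culture and pretreatment cannot be told apart.

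The values are scaled intensities, which are spot brightness with each array brought to the same 75th percentile, and differences are log2 of TL2937+ETEC over TL2766+ETEC, so that a negative value is a lower signal after TL2937. A gene was counted as detected where the extraction software marked its brightest probe as well above background, and 4970 named genes were detected on both arrays. The arrays were alike in quality: 62.5% of spots after TL2937 and 61.7% after TL2766 were well above background, and no spot was saturated. The 22 probes printed in 5 spots each gave a median SD of 0.09 for the log2 difference between spots, with a range of 0.02 to 0.52. That SD covers spot noise and leaves out the spread between cultures. A fold of 1.2 is used below as a descriptive mark for members of gene lists, and 2-fold as the mark for single genes. By the 1.2-fold mark, 7.24% of the 4970 genes were lower after TL2937 and 4.23% higher. These shares stand beside every list count below.

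The probes behind the genes described first are shown by their first 30 bases, because probes lying at different places of 1 transcript measure the gene more than once on an array. Each line gives the gene and the position at which the probe starts in the array maker's target sequence. Capitals mark a run shared by both PTGS2 probes.
IL6, start 493: agattagtaccaaagcactgatccagaccc
IL6, start 760: tccactgggcacataacttatgttgttctc
IL6, start 992: agccaggttgtttcttggagtgtgtaggct
PTGS2, start 3503: gttttGGTTGAGAGTCAGTAATAGAAGGGC
PTGS2, start 3508: GGTTGAGAGTCAGTAATAGAAGGGCgtgta
CCL8, start 141: aatggaaagatccccttcaagaaactggag
CCL8, start 790: gcagtattattgttgaaagtgatgttgtca
OAS1, start 676: tgtcaagcactggtaccagacgtgtaagaa
OAS1, start 871: ttatgactttacaaaccctgtcgttggacg
CENPF, start 989: tcatcttttggatcaactaaaagcccagaa
CENPF, start 4788: agtgttgaagaacttgagatcctttgtcag
CENPF, start 8081: ccagatggaaaagcaagagaagatgagaga
FOXH1, start 946: atctcgacgccctcttccagggggtgccac
The 3 IL6 probes do not overlap in these stretches, whereas the 2 PTGS2 probes share 25 bases and measure nearly the same place. FOXH1 has 1 probe.

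IL6, the cytokine of the acute-phase response, had a scaled intensity of 1260 after TL2937, 2071 after TL2766 and 1442 on the ETEC array. Its difference was -0.72, and the probes starting at 493 and 760 gave -0.80 and -0.65. The TL2766+ETEC array was the highest of the 3 for each of these probes. PTGS2, the inducible cyclooxygenase that starts prostaglandin synthesis, had 1246, 2101 and 1393 in the same order, a difference of -0.75, with -0.83 at its other, overlapping probe. Here too the TL2766+ETEC array stood above both others, and the TL2937+ETEC array was below the ETEC array. IL1A, an alarm cytokine, was at 6380, 8993 and 7152, and CSF2, the granulocyte-macrophage colony-stimulating factor, was at 68926, 95145 and 61166. For CSF2 both pretreated arrays were above the ETEC array, TL2766+ETEC further than TL2937+ETEC.

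Of 20 detected cytokine genes, 6 were at least 1.2-fold lower after TL2937 and none was that much higher, and their median difference was -0.07. Over all 4970 genes, 7.24% were at least 1.2-fold lower and 4.23% at least 1.2-fold higher, and the median was -0.04, so the cytokine list as a whole had a median near that of all genes. The other 3 lower members were dim: OSM at 15.3 against 29.8, TGFB3 at 54.7 against 97.8 and IL27 at 39.4 against 57.5. TGFB3 had a second probe at -0.20. TNF, the early inflammatory cytokine, was at 377 and 372, and TGFB1 at 3898 and 3801, so neither differed by more than the median spot SD. Of 12 NF-kB targets and regulators, 3 were lower by the 1.2-fold mark, with a median of -0.21. Besides PTGS2 they were SAA3, an acute-phase apolipoprotein, with 6104 against 8651, and SOD2, the mitochondrial superoxide dismutase, with 12473 against 15624. All 5 SAA3 probes and all 7 SOD2 probes were lower after TL2937, and the SAA3 differences ran from -0.61 to -0.49. NFKBIA, the inhibitor that NF-kB induces in its own feedback, differed by -0.26. Among 10 genes of prostaglandin and leukotriene synthesis, PTGS2 and PLA2G4A, the phospholipase that frees arachidonic acid, passed the mark. PLA2G4A was at 739 and 888.

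Receptors and adaptors upstream of these genes lay closer together. Of 17 detected Toll-like receptors and adaptors, 2 were lower by at least 1.2-fold and 15 within it, with a median of -0.07. TLR4, the receptor for lipopolysaccharide, was at 6785, 6713 and 6319, a difference of 0.02 between the pretreated arrays. TLR3, the double-stranded RNA receptor and itself an interferon-induced gene, was at 2636, 3234 and 3824, and its second probe gave -0.33 beside -0.29. TLR2, the other lower member, was at 14.3 and 17.2, near the detection limit. MYD88, the adaptor of most Toll-like receptors, gave -0.16 and -0.44 at its probes, which differ from each other by more than the median spot SD. All 7 detected negative regulators of this signalling were within 1.2-fold at their brightest probe. The furthest by that probe were IRAK3, a decoy kinase, with 210 against 249, and the linear deubiquitinase OTULIN, with 228 against 267. SOCS3, a feedback inhibitor of JAK-STAT signalling, differed by -0.19 at its brightest probe, but its other probe gave -0.60, past the mark.

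Chemokines carried some of the widest differences among genes of middle or high signal. Of 21 detected, 13 were at least 1.2-fold lower after TL2937 (61.9% beside 7.24% of all genes), none was that much higher, and the median was -0.30. CCL8, which attracts monocytes, was at 204 after TL2937, 367 after TL2766 and 354 on the ETEC array. Its probes gave -0.85 and -0.98. The TL2766+ETEC and ETEC arrays were near each other for both CCL8 probes, and the TL2937+ETEC array was the low one. CCL11, the eosinophil attractant eotaxin, was at 54.8, 85.4 and 109. CXCL9, CXCL10 and CXCL11, the interferon-induced ligands of CXCR3, differed by -0.55, -0.41 and -0.53. CXCL10 was at 75382, 100067 and 108264, and its second probe gave -0.39. In all 3 of these ligands the order from low to high was TL2937+ETEC, TL2766+ETEC, ETEC. CCL5, which attracts T cells, had another order: 51129 after TL2937, 73664 after TL2766 and 57978 on the ETEC array, with probes from -0.53 to -0.28. CXCL8, the neutrophil attractant, was at 158172, 197873 and 177737, the TL2766+ETEC array again highest. CCL3L1 was the 1 chemokine above 0 among those detected on both arrays, with 57.0 against 51.7. CCL21, a lymphocyte attractant, was detected after TL2937, at 17.2, and not after TL2766, a bound of at least 1.46-fold higher after TL2937. Of the immune lists, the cytokines IL1B and LIF and the receptors TLR6 and TLR9 were likewise detected only after TL2937 of the 2 pretreated arrays, with bounds from 1.14 for TLR6 to 1.60 for TLR9. These 5 genes run against the direction of most of their lists, at signals near the detection limit.

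**Figure D1:**
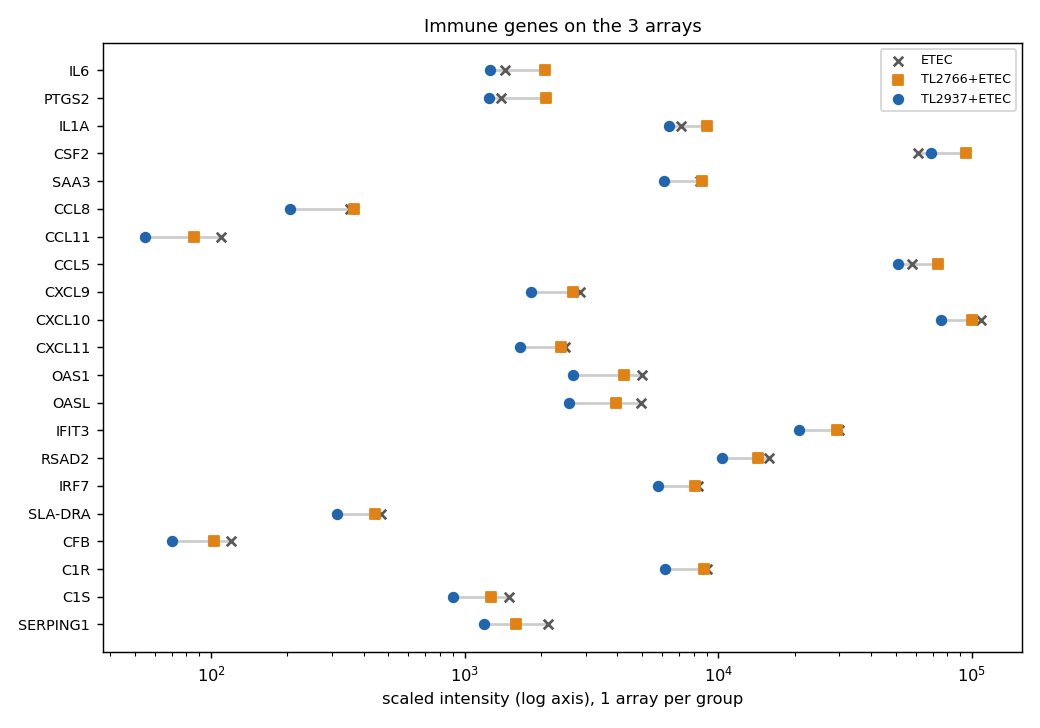
Scaled intensity on a log axis of 21 inflammatory, chemokine, interferon, antigen-presentation and complement genes, 1 symbol per array and 1 array per group. In every gene drawn the TL2937+ETEC circle lies left of the TL2766+ETEC square, while the ETEC cross lies left of the square for IL6 (1442 against 2071) and right of it for OAS1 (5002 against 4268); positions of different genes come from different probes and are not to be compared.

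The interferon-stimulated antiviral genes were lower after TL2937 without exception among those detected. All 26 had a negative difference, 16 (61.5%) passed the 1.2-fold mark, and the median was -0.31, whereas 65.3% of all genes were negative. OAS1, the oligoadenylate synthetase that activates RNase L, was at 2677, 4268 and 5002, with -0.67 and -0.55 at its probes. OASL, a related protein that enhances RIG-I sensing, was at 2585, 3958 and 4962. For both genes the TL2937+ETEC array was lowest and the ETEC array highest. IFIT3, which binds with other IFIT proteins to foreign RNA, was at 20851, 29353 and 29949. RSAD2, the antiviral enzyme viperin, was at 10307, 14339 and 15788. IFITM1, which blocks virus entry, was at 4877, 6803 and 7977. The TL2766+ETEC level lay between the other arrays in each of these, close to ETEC for IFIT3. MX1 and ISG15, an antiviral GTPase and a ubiquitin-like protein, differed by -0.25 and -0.20, within the mark. All 26 genes were also above the median probe signal on both arrays, where 3.62% of 3291 genes were at least 1.2-fold lower and 0.729% higher. In that brighter set 10 of 15 chemokines and 4 of 7 complement genes were lower by that mark, and 3 of 8 mitotic genes were higher by it.

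Of 18 detected genes of interferon and JAK-STAT signalling, 4 were lower by at least 1.2-fold and none higher, with a median of -0.17. Among them were the factors IRF7 and STAT2 and the ligand IFNB1. IRF7, which drives interferon transcription, was at 5765, 8068 and 8314. STAT2, part of the complex that activates antiviral genes, was at 4328, 5335 and 6195, and all 5 of its probes were negative. IFNB1 itself was dim, at 35.2, 43.3 and 34.4, and its difference of -0.30 rests on 1 probe. IFNGR2, a chain of the interferon-gamma receptor, differed by -0.23. Under background correction by normexp, described under the processing, the median of the list was -0.10.

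Antigen presentation followed the same direction. Of 8 detected genes of MHC class II presentation, 6 were at least 1.2-fold lower and none higher, with a median of -0.29, or -0.49 over the 3 members of higher signal. SLA-DQA1, a class II alpha chain, was at 592, 848 and 1053, and SLA-DRA at 315, 441 and 467. All 7 detected probes of each were negative, from -0.68 to -0.31 and from -0.58 to -0.23 beside the main probes. SLA-DMB was at 202 and 244, -0.27, but its other probe gave -1.18, past 2-fold. SLA genes have near-identical copies, so a probe can read more than 1 of them. RFX5, a factor of the class II promoter, was at 129 and 172 at its main probe, but another of its 3 probes gave 0.48 in the opposite direction. Of 16 class I and antigen-processing genes, 6 passed the mark downwards and none upwards, with a median of -0.25. PSMB9 and PSMB10, catalytic subunits of the immunoproteasome, were at 22386 against 28958 and 34136 against 43101. TAP1, a subunit of the peptide transporter, was at 1942, 2422 and 2634, and PSME2, a proteasome activator subunit, at 16527, 20588 and 20570. For the genes named here apart from RFX5 and PSME2, the TL2766+ETEC array was also below the ETEC array.

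Complement genes had a median of -0.30 over 15 detected members, 8 of them lower by 1.2-fold and none higher. Among them were the early proteases of the classical pathway: C1R was at 6164, 8811 and 9051, and C1S at 896, 1273 and 1501, with 3 C1S probes from -0.55 to -0.40. CFB, the protease of the alternative pathway, had the widest difference of the list, -0.55, at a dim probe with 70.1, 102 and 120. SERPING1, the inhibitor of C1R and C1S, was lower as well, at 1193, 1594 and 2125, so protease and inhibitor genes shared the direction. C5AR1, the C5a receptor, had its highest level on the TL2766+ETEC array, with 716, 991 and 845. C3, the central component, differed by -0.13, within the mark. The list's median depended on its dim members: it was -0.09 after normexp correction and -0.42 over the 7 members of higher signal.

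Of the 86 detected genes in the antiviral, MHC class I and II, chemokine and complement lists together, 83 had a difference below 0. That count takes any size of difference, and 65.3% of all 4970 genes were also below 0. These lists share their regulators and their RNA, so their members are not independent of each other. LGALS9, the lectin galectin-9, which is on no list, was at 15203, 23758 and 28603, with 3 probes from -0.67 to -0.54. ACOD1, which makes itaconate and is called IRG1 in the array's naming, was at 1284, 1761 and 1300, with 3 probes from -0.46 to -0.42. These 2 were taken, after their values were seen, from the 27 genes that have at least 2 detected probes and are at least 1.3-fold lower at every probe. In the other direction 2 genes met that rule, out of 2378 with at least 2 detected probes (1.14% lower, 0.0841% higher). They were MTBP, an MDM2-binding protein of DNA replication, with 53.3 against 38.6, and MATN2, a matrix protein, with 22.2 against 16.6. The 27 lower genes also held IL6, PTGS2, CCL8, OAS1, F3, DDIT4 and SST, described above or below, and CHI3L1, a chitinase-like glycoprotein, at 11124, 16134 and 11962.

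**Figure D2:**
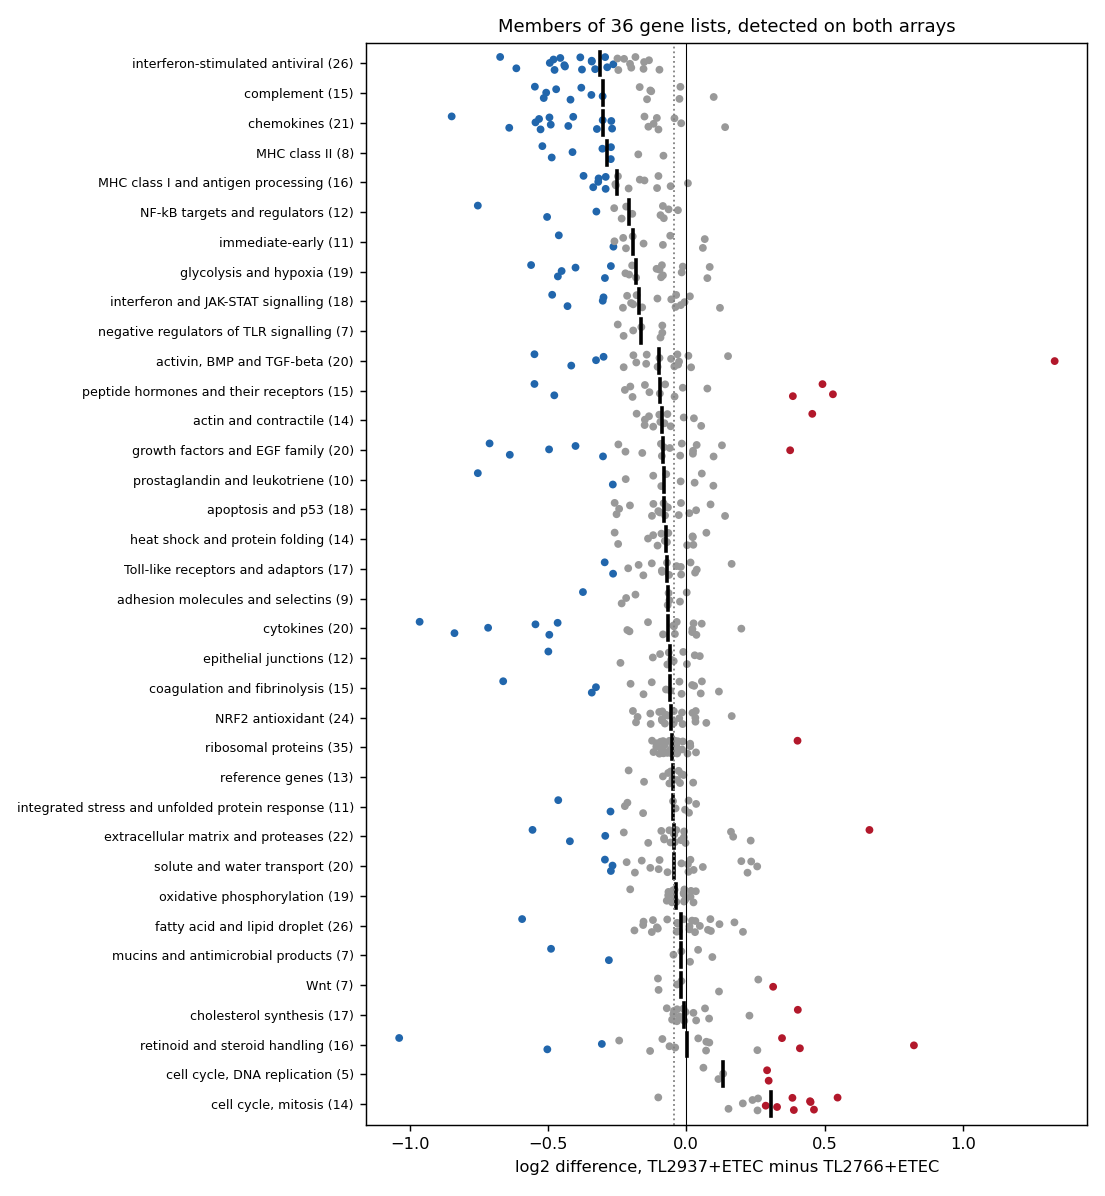
Log2 difference between the TL2937+ETEC and TL2766+ETEC arrays for each detected member of 36 gene lists, with the number detected in brackets; black bars are list medians, the dotted line is the median of all genes (-0.04), blue and red points are at least 1.2-fold lower and higher. The antiviral, complement and chemokine lists have the lowest medians (-0.31, -0.30 and -0.30) and mitosis the highest (0.31).

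Genes of cell division ran the other way. Of 14 detected mitotic genes, 8 (57.1%, beside 4.23% of all genes) were at least 1.2-fold higher after TL2937 and none lower, with a median of 0.31. CENPF, a kinetochore protein made before and during mitosis, was at 977 after TL2937, 716 after TL2766 and 933 with ETEC alone. Its 3 probes, which do not overlap, gave 0.45, 0.29 and 0.52. On each probe the TL2766+ETEC array was the low one, and the other arrays lay near each other. PLK1, a mitotic kinase, was at 148, 107 and 127, and CDC20, the activator of the anaphase-promoting complex, at 225, 172 and 214. CDK1, the kinase that starts mitosis, was at 2696, 2067 and 2363, with a second probe at 0.29. KIF23 and KIF20A, motor proteins of cytokinesis, were dim, at 24.1 against 16.5 and 35.5 against 26.1. AURKB, a kinase of the chromosomal passenger complex, was at 2113 and 2267, -0.10, but its other 2 probes gave 0.13 and 0.37, so its direction is not settled. After normexp correction the median of the list was 0.21.

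Of 5 detected genes of DNA replication, 2 passed the mark upwards, MCM3 and CDC45, both parts of the replicative helicase. MCM3 was at 388, 316 and 258. CDC45 was at 2397, 1957 and 1879, and its 3 probes gave 0.24 to 0.36. Here the ETEC array was the lowest, unlike for CENPF and CDC20. PCNA, the sliding clamp, was at 524 and 478, within the mark. In a bulk culture a smaller number of dividing cells and less RNA in each cannot be told apart.

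**Figure D3:**
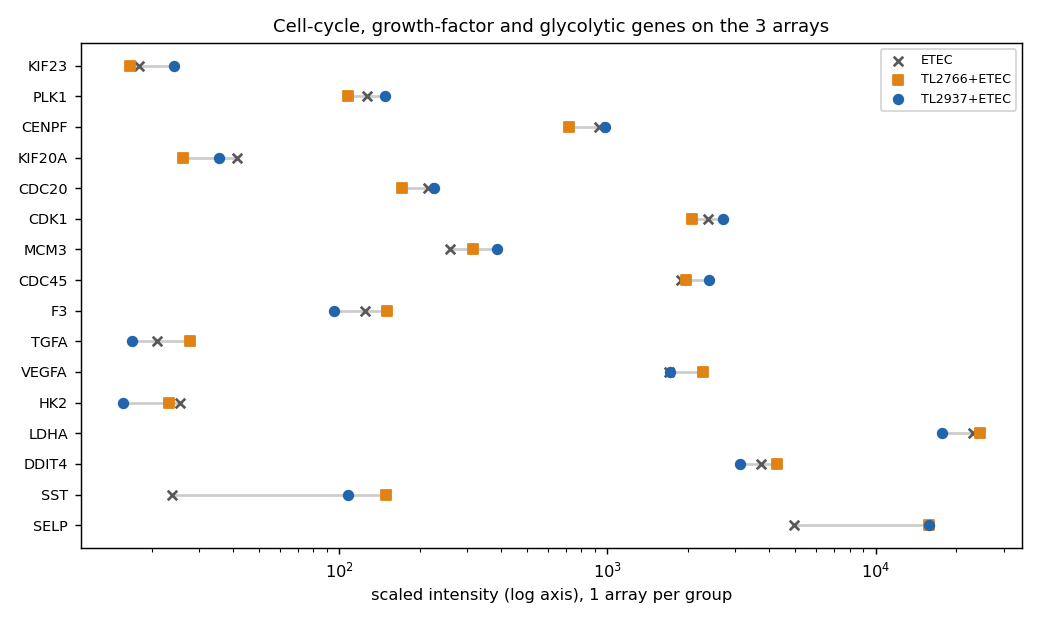
Scaled intensity on a log axis of 16 cell-cycle, growth-factor, coagulation, glycolytic and other genes, 1 symbol per array and 1 array per group. For the mitotic genes the TL2766+ETEC square is left of the TL2937+ETEC circle (CENPF 716 against 977); for SELP the circle and square coincide (15794 and 15777) and the ETEC cross lies far to the left (4942).

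Growth factors and the genes of clotting and glycolysis held a few lower members each. Of 20 growth-factor and EGF-family genes, 5 (25%) were lower and 1 (5%) higher, beside 7.24% and 4.23% of all genes. Their median was -0.08. VEGFA, which drives vessel growth, was at 1716, 2265 and 1696, and AREG, an EGF receptor ligand, at 18216, 22443 and 20465. TGFA, BTC and IGFBP2 were lower too, by -0.71, -0.50 and -0.64, all at dim probes. The higher one was IGFBP6, a binding protein for IGF2, at 954, 736 and 327. Another IGFBP6 probe gave -0.08, and both pretreated arrays were above the ETEC array. F3, the tissue factor that starts clotting, was at 95.2, 151 and 125, with probes of -0.66 and -0.94. F10, a clotting protease, and PLAU, the urokinase that activates plasminogen, were the other 2 lower members among 15 genes of coagulation. With F3, the lower genes made up 20% of the 15. PLAU was at 9004, 11291 and 8538.

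Of 19 genes of glycolysis and hypoxia, 6 (31.6%, beside 7.24% of all genes) were lower by 1.2-fold, with a median of -0.18. LDHA, lactate dehydrogenase, was at 17702, 24422 and 23100, and ANKRD37, a HIF target, at 999, 1365 and 1355. SLC2A1, the main glucose transporter, was at 862 and 1058. HK2, the first enzyme of glycolysis, had -0.56 at a dim probe with 15.7 against 23.1. DDIT4, an mTORC1 inhibitor induced by hypoxia and stress, was at 3121, 4302 and 3729 and lower at both of its probes. Among 11 immediate-early genes 2 (18.2%) were lower. They were NR4A3, an orphan nuclear receptor, at 54.2 against 74.7, and KLF4, a zinc-finger factor, at 1194 against 1433. All 7 KLF4 probes were negative.

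The activin, BMP and TGF-beta list gave 4 lower members (20%) and 1 higher (5%) of 20, beside 7.24% and 4.23% of all genes. The higher one, FOXH1, is the DNA-binding partner of SMAD proteins in activin and nodal signalling and was at 435, 173 and 163. It was the only gene past 2-fold in either direction whose mean signal on the 2 arrays was above 100. SMAD3, a signal transducer of activin and TGF-beta, was at 7601, 9530 and 7549, with -0.33 and -0.45 at its probes. BMP2, a bone morphogenetic protein, was at 132 and 176. INHA, the inhibin alpha subunit, was at 28.1 and 41.1. FST, follistatin, which binds activin, was at 1347 and 1658 after the pretreatments and 544 on the ETEC array. The difference between the strains for FST, -0.30, was small beside the distance of both from ETEC.

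SELP, P-selectin, and ADM, the vasodilator adrenomedullin, were almost identical on the pretreated arrays. SELP was at 15794 and 15777, with 4942 on the ETEC array. ADM was at 9199 and 9280, with 16250 on the ETEC array. TPM1, a tropomyosin, was at 16357 and 17501, with 38039 on the ETEC array. In these genes both pretreated arrays lay on the same side of ETEC, and each comparison with ETEC uses the same ETEC array. SST, somatostatin, was also far from ETEC on both, at 108 and 150 against 23.8, and was lower after TL2937 at both probes. STRA6, a retinol uptake receptor, was at 452, 480 and 1208, with other probes of both signs.

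Several lists lay within the mark almost entirely. None of 24 NRF2 antioxidant, 14 heat-shock, 18 apoptosis, 19 oxidative-phosphorylation or 13 reference genes reached 1.2-fold in either direction. Their medians were -0.06, -0.07, -0.08, -0.04 and -0.05. Of 17 cholesterol-synthesis genes 16 and of 26 fatty-acid genes 25 were within it. The exceptions were SC5D, a sterol desaturase, at 111 and 84.1, and PPARG, the adipogenic nuclear receptor, at 48.8 and 73.6 with another probe at 0.05. Among 35 ribosomal protein genes 34 were within the mark, and RPS6 stood apart at 81605, 61754 and 89146 on its single named probe. Epithelial junction genes gave 1 lower member of 12, CLDN3, a tight-junction claudin, at 13.9 and 19.6, and OCLN, occludin, was at 922 and 967. Of 7 mucin and antimicrobial genes 2 were lower, LTF, lactoferrin, at 21.7 and 30.5, and NOS2, the inducible nitric oxide synthase, at 4314 and 5237 with all 5 probes negative.

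Other lists had members on both sides of 0. Of 16 retinoid and steroid genes 3 were higher and 3 lower. RBP4, the retinol carrier, was at 207 and 293. CYP11A1, which makes pregnenolone, had 0.82 at its main probe and -0.39 at the other. Of 15 peptide hormones and receptors 3 were higher, GAST, GAL and SSTR1, all dim, and 2 lower, SST and INHA. GAST, gastrin, also had probes of opposite sign. Of 22 matrix and protease genes 3 were lower and 1 higher, the latter LUM, lumican, whose 4 probes ran from -1.17 to 0.66. ADAMTS4, an aggrecan-cleaving protease, was at 2042 and 2501. Of 20 transport genes 3 were lower, SLC2A1, SLC2A3 and AQP3, and none higher. Of 7 Wnt genes only SFRP5, a secreted antagonist, passed the mark, at 38.0 and 30.6. Of 14 actin and contractile genes only MYOZ2, a sarcomere protein, did, at 39.6 and 28.9, with other probes from -0.28 to 0.35.

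Past 2-fold, the calls were few and dim. Of 4970 genes, 4 (0.0805%) were higher after TL2937 by 2-fold or more and 10 (0.201%) were lower by as much. Of 25975 probes detected on both arrays, named or not, 42 (0.162%) were higher and 63 (0.243%) lower. Each of the 14 genes had 1 detected probe, and 13 had a mean scaled intensity under 100. Of the 105 probes, 63 had a mean under 30, where the SD of the log2 difference over all probes was 0.39, against 0.11 for probes over 1000. No probe over 1000 reached 2-fold. The median GC content was 43.3% for the probes called in each direction and 41.7% for the rest. With normexp background correction 1 gene, FOXH1, stayed past 2-fold, and when both arrays had to be above the median signal no gene did. Normexp here adds an offset of 50, which shrinks differences at dim probes, and the median-signal filter removes dim probes. Neither setting therefore tests the dim calls.

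Besides FOXH1 the higher genes were LCN5, a lipocalin, at 43.8 and 19.6, LRRC71, a leucine-rich repeat protein, at 47.4 and 22.0, and ZNF367, a zinc-finger protein, at 41.6 and 19.6. For LCN5 and LRRC71 the ETEC array was near the TL2937+ETEC array, with 37.9 and 51.9. The widest lower gene was GAL3ST2, a sulfotransferase that acts on galactose of mucin-type glycans, at 22.3, 82.6 and 35.1, which is 3.71-fold. ARHGEF39, a guanine nucleotide exchange factor, was at 16.7, 51.0 and 20.2, 3.06-fold lower. MESP2, a factor of somite segmentation, was at 55.8, 131 and 77.6. HSD17B1, which makes estradiol, was at 39.1, 80.3 and 24.6. In each of these 4 the TL2766+ETEC array was the high one and the other 2 were nearer to each other. The remaining 6 had TL2937+ETEC signals between 13.8 and 19.3: SEMA6D, a semaphorin, GRM4, a glutamate receptor, SLA2, an adaptor of lymphocyte receptors, EPB42, a red-cell membrane protein, HKDC1, a hexokinase, and ZBTB12, a zinc-finger protein. Another 85 probes past 2-fold carry no gene name used here, 35 higher and 50 lower. Named probes past 2-fold were 7 higher and 13 lower, and these include probes that were not the brightest of their gene, such as 1 of SLA-DMB.

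**Figure D4:**
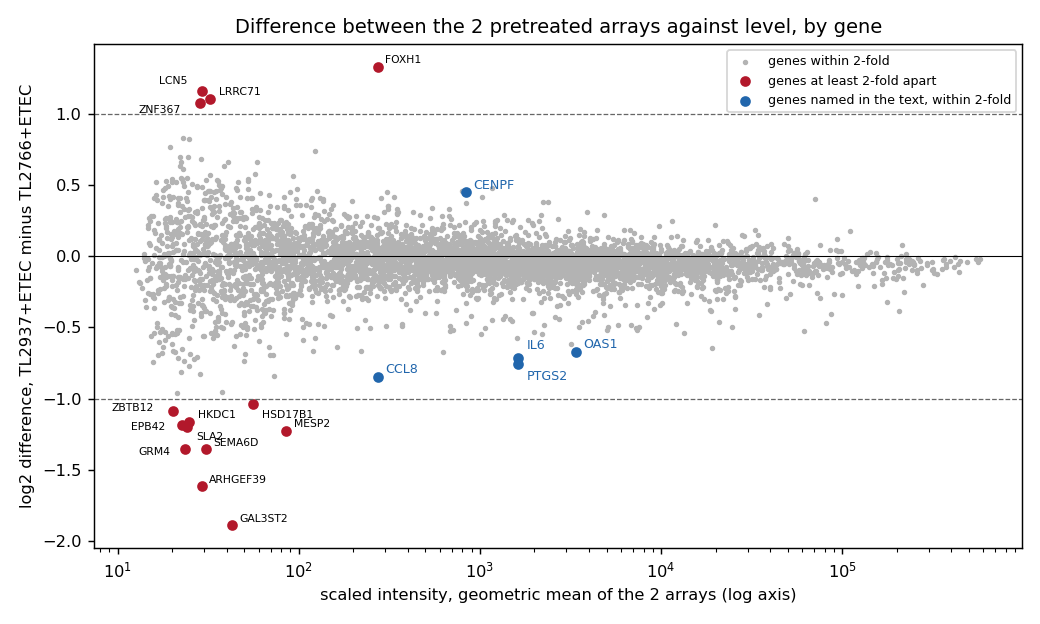
Log2 difference between the TL2937+ETEC and TL2766+ETEC arrays against the geometric mean of their scaled intensities (log axis), 1 point per gene, 4970 genes; dashed lines mark 2-fold. The scatter widens to the left, where 13 of the 14 genes past 2-fold (red) lie, while IL6, PTGS2, OAS1, CCL8 and CENPF (blue) are within 2-fold at higher signal.

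Genes detected on 1 of the 2 arrays have a bound rather than a fold. It was taken against the dim probe's own signal or that array's lowest detected one, whichever was higher. The limit differed between probes: on the TL2766+ETEC array the lowest detected signal was 11.8, but TMEM55A at 15.9 was not well above background. The bounds, and the counts past 2-fold by them, are therefore nominal and can overstate the fold. Only genes with no detected probe on the other array and a bound above 1 were counted, out of 6497 named genes. Of 110 such genes detected only after TL2766, 17 were at least 2-fold brighter by this bound. Of 132 such genes detected only after TL2937, 12 were. EGR4, an immediate-early zinc-finger factor, was at 72.2 after TL2766 and not well above background after TL2937 (at least 6.25-fold higher after TL2766). EPO, erythropoietin, was at 44.6 (at least 3.86-fold) and CLDN11, a claudin, at 40.5 (at least 3.47-fold). NCF1, a cytosolic subunit of the phagocyte NADPH oxidase, was at 39.6 (at least 3.43-fold). The list went on with ARPP21, KRT3 and BCAS1, with bounds of 3.44, 3.07 and 3.05. Brighter after TL2937 were NR0B2, the bile-acid-induced nuclear receptor SHP, at 45.3 (at least 3.85-fold), CD302, a C-type lectin, at 42.7 (at least 3.63-fold), and CD8B, a T-cell coreceptor chain, at 35.3 (at least 3.00-fold). FCAR, FABP4, SOX9, COL11A1 and FFAR1 followed, with bounds of 2.82, 2.56, 2.50, 2.41 and 2.34. All of these signals were dim, in the range where the differences between the arrays scattered most.

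The label of intestinal epithelial cells was set against marker genes. Of 9 epithelial markers on the array, EPCAM, KRT18, KRT20, CLDN4 and ESRP1 were not well above background on either pretreated array. KRT8, CLDN3 and CLDN7 were detected, at 13.9 to 23.9, and CDH1, E-cadherin, was detected at 25.1 after TL2937 and not after TL2766. The 3 detected on both arrays had a median difference of -0.41, and 2 of them were at least 1.2-fold lower after TL2937. The summed signal of all 9, probes at background included, was 108 after TL2937, 106 after TL2766 and 110 on the ETEC array. Of 8 enterocyte markers, 4 were detected on both arrays, and FABP1 and FABP2 were not well above background. Only 1 of the 8, APOA1, the main apolipoprotein of HDL, was above the median probe signal on both, at 27743 and 27121. Of the pretreated arrays, VIL1 was detected only after TL2766, at 14.2, and ANPEP only after TL2937, at 18.8. Of 9 endothelial markers 8 were detected on both arrays, among them PECAM1 at 84031 and 85367 and CDH5, VE-cadherin, at 56584 and 55877. None of the 8 reached 1.2-fold between the arrays, and their median difference was 0.01. The summed endothelial signal was 214625, 218945 and 204946. Of 7 mesenchymal markers VIM was at 242690 and 252334, and 1, LUM, passed the mark. Of 9 leukocyte markers 2 were detected on both arrays, CD14 at 723 and 741 and CD79A at 13.8 and 21.0, and PTPRC, CD45, was not well above background. Another 5 were detected on 1 pretreated array only, at 13.9 to 21.9. They were CD4, CD163 and LYZ after TL2766, and CD3E and CD8A after TL2937. Of 3 smooth muscle markers 2 were detected on both, ACTA2 at 41882 and 47431 and DES at 2223 and 2181. The summed smooth muscle signal was 44121, 49627 and 56279, and the mesenchymal 485839, 502508 and 519606. The epithelial markers on the array were thus not well above background or near the detection limit in both groups. All 8 detected endothelial markers were above the median probe signal on both arrays. The epithelial label was not borne out by these markers, and the identity of the cells was not tested. The part of cell make-up in the differences between the strains was not tested.

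**Figure D5:**
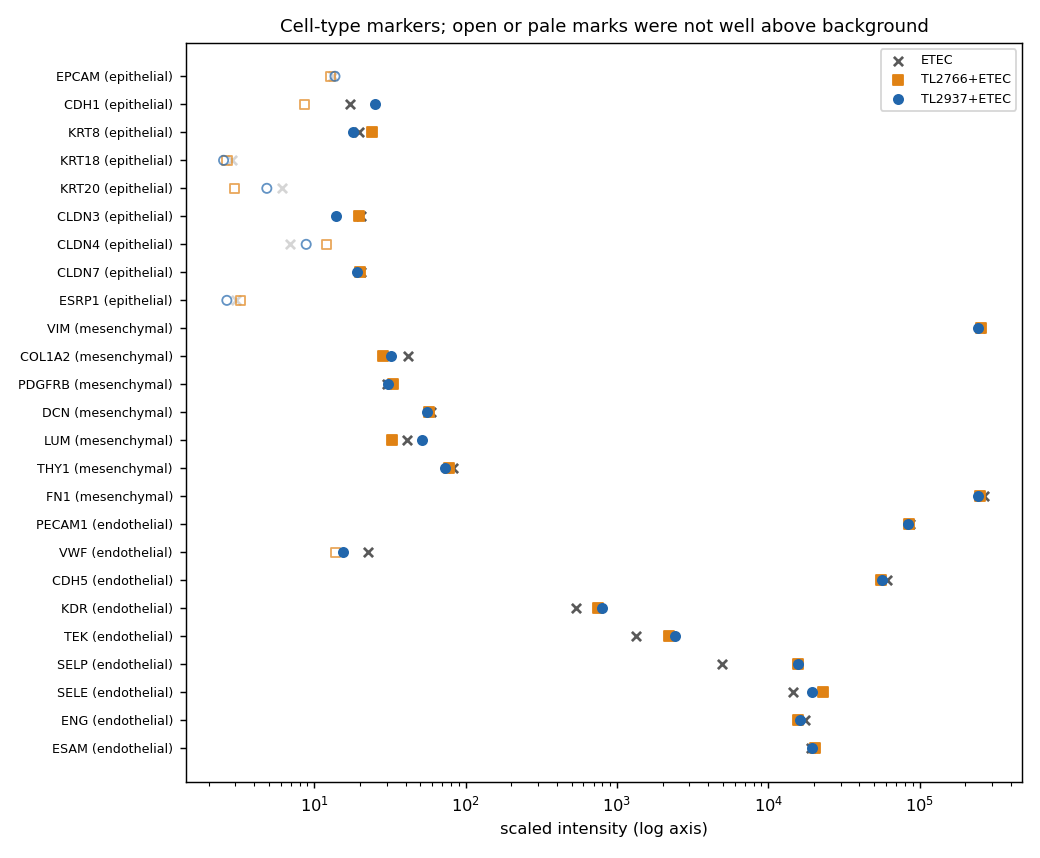
Scaled intensity on a log axis of epithelial, mesenchymal and endothelial marker genes on the 3 arrays; open or pale marks were not well above background on that array. EPCAM, KRT18, KRT20, CLDN4 and ESRP1 carry only open or pale marks, and PECAM1 (84031 and 85367) and CDH5 (56584 and 55877) have nearly the same position on both pretreated arrays.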

How the data were processed

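Agilent 1-colour arrays (1 per group, 200 ng of RNA) were scanned and extracted with Feature Extraction 10.7.3.1, per the file headers. The deposited value is the processed spot intensity, already background-subtracted by that software; the deposited value table holds the same intensity to within 0.50% and was used as an alternative. From there, 21 outlier spots over the 3 arrays were left out, log2 values were centred on each array's 75th percentile and the spots of a probe were averaged. Scaled intensity puts this back on the mean 75th percentile, 481. A gene was its named probe with the highest mean over the 2 arrays; 13844 probes gave 6497 genes through array names and RefSeq accessions, and 29697 had no name. Called genes were at least 2-fold apart and well above background on both arrays. Named genes were up to 20 calls a direction, up to 8 bounds a direction and up to 5 members of each list by size of difference; any other gene was picked with its values in view, and a few genes of these lists are not reported here. The members and the gene lists were chosen with earlier results of these data known. Alternatives used limma 3.58.1 (normexp with offset 50, quantile, cyclic loess). The gene step was tested on simulated data with the same noise at every level, the median spot SD of 0.09. The SD of the difference over real probes under 30 was 0.39, so that simulation does not show how reliable the dim calls are. The number of arrays limits the precision.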

Additional observations from a re-analysis of the deposited data

How the results depend on the processing

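No paired analysis was possible because each group has 1 array, so no replicate block can be fitted and no array can be left out. Counts of genes at least 2-fold higher and lower (4 and 10) and of probes (42 and 63) changed with the treatment of dim signals. They were 1 and 0 genes and 1 and 0 probes after normexp, whose offset shrinks dim differences. Above the median signal of detected probes, which leaves dim probes out, they were 0 of each. With no background filter they were 206 and 172 genes and 1940 and 1663 probes. At 1.5-fold they were 17 and 49 genes and 347 and 310 probes, and at 3-fold 0 and 2 genes and 4 and 10 probes. Median or quantile scaling, cyclic loess, the authors' value table, keeping outlier spots and averaging probes left all of these counts within 1.5 times. Of 324 list medians, 316 moved by less than the spot SD and 310 kept their sign. Those that moved further were complement (-0.088 after normexp, -0.14 with no filter, -0.42 above the median signal), mitosis (0.21 after normexp), chemokines (-0.21 with no filter), and, above the median signal, MHC class II (-0.49), mucins (-0.15) and the integrated stress response (-0.16). These kept their sign. Changes of sign were in the mucin, cholesterol, retinoid, ribosomal, oxidative-phosphorylation and reference lists. No called gene changed sign. Signal over background limits the calls, most of which lie near the detection limit.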
